A study of Mus musculus with 31 samples.

Results

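The mRNAs of 10 genes that make miRNAs were followed through the RNA-seq of mouse embryonic stem cells (mESCs): *Drosha*, *Dgcr8*, *Ddx5*, *Ddx17*, *Srrt*, *Xpo5*, *Dicer1*, *Tarbp2*, *Prkra*, and *Adar*. The genes were chosen by name for their known part in miRNA biogenesis, and all 10 were among the 15034 genes of the table, with every one at or above the mean of 1 TPM, a read share scaled by transcript length and library total, that left 11287 genes for testing. The RNA-seq had 12 libraries of 4 genotypes, all in the ES-E14TG2a background with a FLAG-tag on Trim71. WT mESCs (n = 2) carried no further change, CLIPΔ mESCs (n = 2) lacked on both alleles the Trim71-binding region in the *Ago2* 3'UTR, *Ago2* KO mESCs (n = 4) lacked Ago2, and *Ago2* KO/CLIPΔ mESCs (n = 4) carried both changes. Small RNAs were sequenced from 4 libraries per genotype, and the Trim71 CLIP-seq, which maps where Trim71 contacts RNA, gave 1 peak list. The edited lines are clones, and the labels call the libraries of a genotype biological replicates. Which clone or culture gave a library is not given in the sources used here, so the p-values cover the spread between these libraries. The RNA-seq tests pooled this spread over the 4 genotypes, so those of CLIPΔ against WT also rest on libraries without Ago2.

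miRNAs are cut from long transcripts in steps. In the nucleus the Microprocessor, which pairs the RNase III enzyme Drosha with the double-stranded RNA-binding protein Dgcr8, releases a hairpin precursor, with the helicases Ddx5 and Ddx17 and the cap-associated protein Srrt (Ars2) as cofactors. Xpo5 (Exportin-5) carries the precursor to the cytoplasm, where Dicer cuts it with the help of its partners Tarbp2 (TRBP) and Prkra (PACT), and an Argonaute protein such as Ago2 holds 1 strand of the product. Adar deaminates adenosines in double-stranded RNA, including those of some precursors. In mESCs most of the miRNA pool is made through this route, and mESCs without Dgcr8 or Dicer survive but fail to leave the pluripotent state normally.

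*Ago2*, the deleted gene, was read first as a check of the labels. Its level was 28.2 and 21.6 TPM in WT, 27.3 and 20.3 TPM in CLIPΔ, and between 1.51 and 2.87 TPM in the 8 libraries of the *Ago2* KO genotypes, so every library matched its label for *Ago2*. The *Ago2* mRNA level does not check whether a library carried CLIPΔ. The mESC markers were high everywhere, as 7 of 8 listed markers were in the table and summed to between 5111 and 6112 TPM, while the 5 of 6 listed fibroblast markers in the table summed to at most 6.78 TPM. Markers of primed or early lineage cells, of which 8 of 10 were in the table, summed to 55.6 to 58.9 TPM in WT, 43.1 to 44.0 TPM in CLIPΔ, and 30.1 to 43.3 TPM in the *Ago2* KO genotypes, and their part in the results was not tested. The *Ago2* KO genotypes differed from WT and CLIPΔ across the transcriptome: the median log2 difference of all tested genes was -0.26 for *Ago2* KO against WT and -0.25 for *Ago2* KO/CLIPΔ against CLIPΔ. The labels give no batch or date for these sets of libraries, so the genotype and any batch cannot be told apart.

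The members lie on 8 chromosomes (mm10, GENCODE). The Microprocessor subunits are *Drosha* at chr15:12824815-12935291 on the + strand and *Dgcr8* at chr16:18253948-18289246 on the - strand. Their cofactors are *Ddx5* at chr11:106780355-106789185, *Ddx17* at chr15:79527736-79546741, and *Srrt* at chr5:137295704-137307674, all on the - strand. *Dicer1* is at chr12:104687742-104751952 (-), with its partners *Tarbp2* at chr15:102518192-102523676 (+) and *Prkra* at chr2:76629898-76648015 (-). *Xpo5* is at chr17:46202782-46243598 (+) and *Adar* at chr3:89715022-89753446 (+).

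In WT mESCs the nuclear cofactors were the most abundant of the 10 mRNAs. TPM is scaled by transcript length, so levels can be compared between genes. *Ddx5* averaged 686 ± 251 TPM (SD, n = 2), *Srrt* 499 ± 50.3 TPM, and *Ddx17* 319 ± 37.7 TPM, all above 96.7% of the genes in the table. The Dicer partner *Tarbp2* followed at 74.0 ± 12.5 TPM, then *Xpo5* at 44.7 ± 0.719 TPM and *Drosha* at 43.0 ± 0.941 TPM. *Dgcr8*, *Dicer1*, and *Adar* formed a group of like level, at 30.5 ± 9.86, 29.2 ± 1.00, and 28.8 ± 2.09 TPM. *Prkra* was the lowest at 5.04 ± 0.350 TPM. The libraries of neighbours in this order overlapped for *Ddx5* and *Srrt*, *Dgcr8* and *Dicer1*, and *Dicer1* and *Adar*, so these pairs did not differ beyond their spread, while *Xpo5* and *Drosha* were ordered alike in both libraries. In both *Ago2* KO genotypes *Srrt* and *Ddx5* overlapped at the top, *Tarbp2* kept its place behind *Ddx17*, and *Dicer1* and *Dgcr8* overlapped above *Prkra*.

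**Figure D1:**
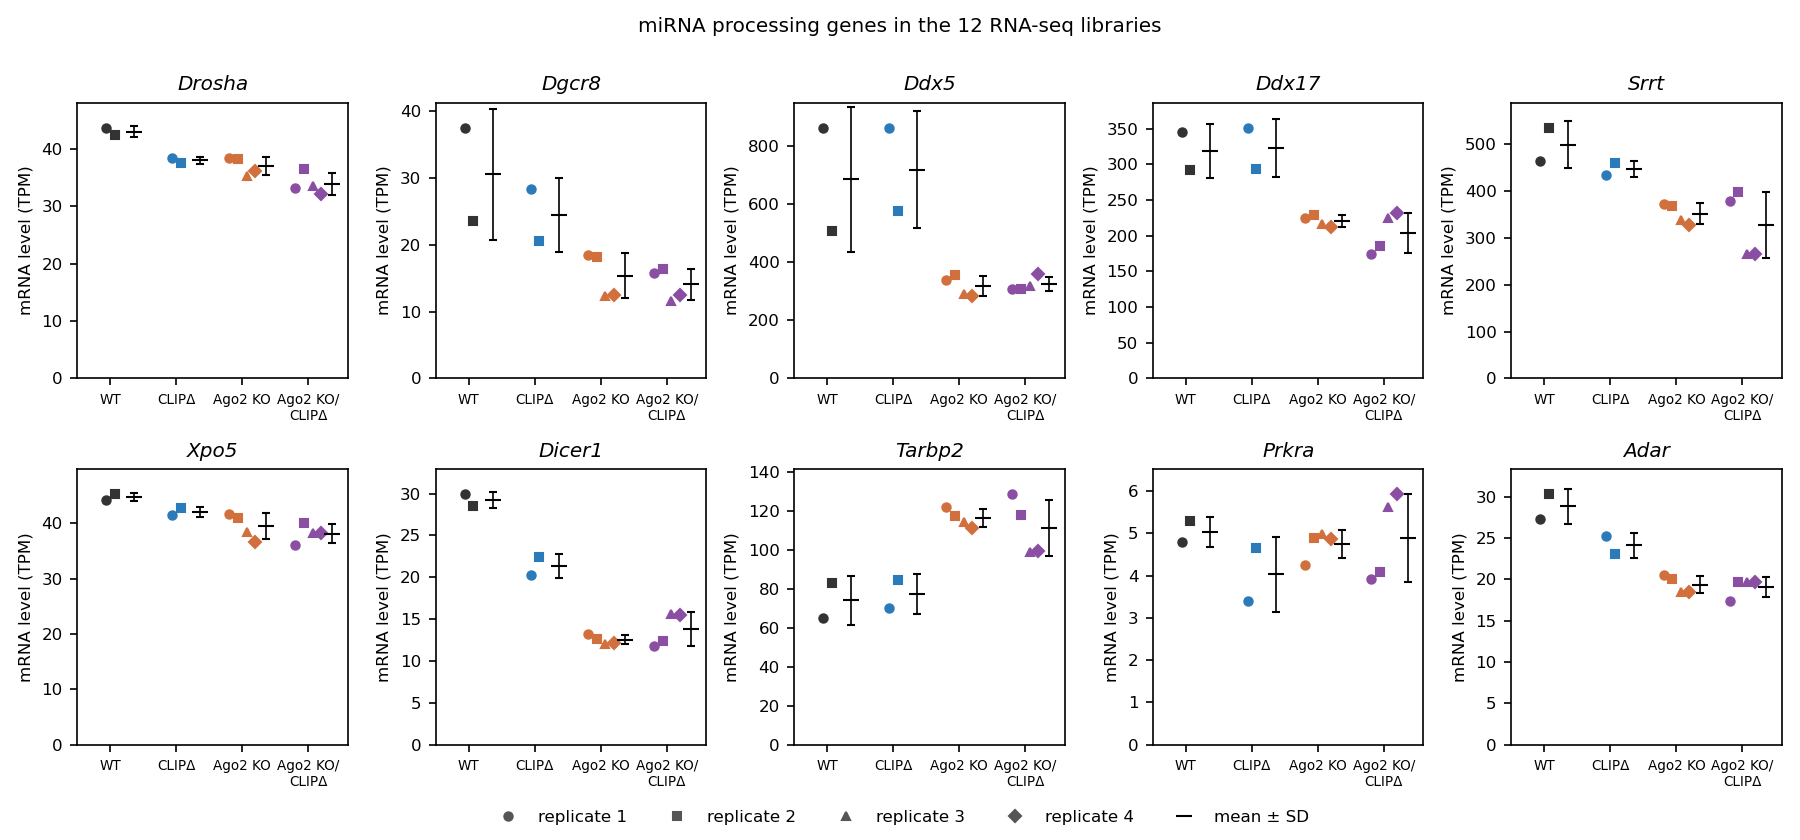
Level of each miRNA processing mRNA (TPM, vertical axis from 0) in every RNA-seq library of the 4 genotypes, with the marker shape giving the replicate number and the black bar the mean ± SD. *Dicer1* falls from 28.5 to 29.9 TPM in WT to between 11.8 and 15.6 TPM in the *Ago2* KO genotypes, *Tarbp2* is higher in these 8 libraries than in the other 4, and the points of *Dgcr8* and *Ddx5* are split by replicate number in WT and CLIPΔ.

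CLIPΔ against WT asks whether losing the Trim71 site in *Ago2* mRNA moves the miRNA processing genes. No member passed the test: 0 of 10 were called at an adjusted p under 0.05 (limma, adjusted over all 11287 tested genes), where 2.27% of all tested genes were called. At an unadjusted p under 0.05 there were 2 of 10, *Dicer1* and *Adar*, beside 12.9% of all tested genes. A limma fit of the WT and CLIPΔ libraries alone, without regard to replicate number, called 0 of all tested genes. Its unadjusted p was 0.0473 for *Dicer1* and 0.210 for *Adar*. With the replicate number as a block, a choice made after seeing the data, these libraries gave 360 calls among all tested genes. Of these 194 were higher and 166 lower, and again 0 of 10 members were called. The median log2 difference of the members was -0.16, against -0.05 for all tested genes. In 6 of 10 members (*Drosha*, *Srrt*, *Xpo5*, *Dicer1*, *Prkra*, and *Adar*) both CLIPΔ libraries lay below both WT libraries, and in 0 of 10 above, while 19.5% of all tested genes were lower without overlap and 11.3% higher.

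*Dicer1*, the RNase III enzyme that cuts the precursors, had the largest of these differences. It measured 29.9 and 28.5 TPM in WT and 20.3 and 22.4 TPM in CLIPΔ. The CLIPΔ mean was 0.730 of the WT mean, without overlap between the libraries. The log2 difference was -0.44 (SE 0.14, limma, unadjusted p = 0.00883, adjusted p = 0.159), and the adjusted p ran from 0.135 to 0.386 when each library was left out in turn. For *Adar*, the WT libraries had 27.4 and 30.3 TPM and the CLIPΔ libraries 25.2 and 23.1 TPM. Its log2 difference was -0.25 (SE 0.11, adjusted p = 0.369). *Drosha* had 43.6 and 42.3 TPM in WT and 38.5 and 37.6 TPM in CLIPΔ, a narrow spread around a log2 difference of -0.17 (SE 0.10, adjusted p = 0.503). *Dgcr8* and *Ddx5* differed more between libraries of 1 genotype than between genotypes, with 37.5 and 23.6 TPM against 28.4 and 20.5 TPM for *Dgcr8* and 863 and 508 TPM against 861 and 578 TPM for *Ddx5*. Leaving out WT replicate 1, so that WT replicate 2 alone stood against both CLIPΔ libraries, turned the *Dgcr8* difference from -0.29 to 0.04. Within each replicate number *Dgcr8* was lower in CLIPΔ. With that number as a block the difference was -0.29 (limma, adjusted p = 0.464). The other 5 members lay between -0.27 (*Prkra*) and 0.07 (*Tarbp2*).

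**Figure D2:**
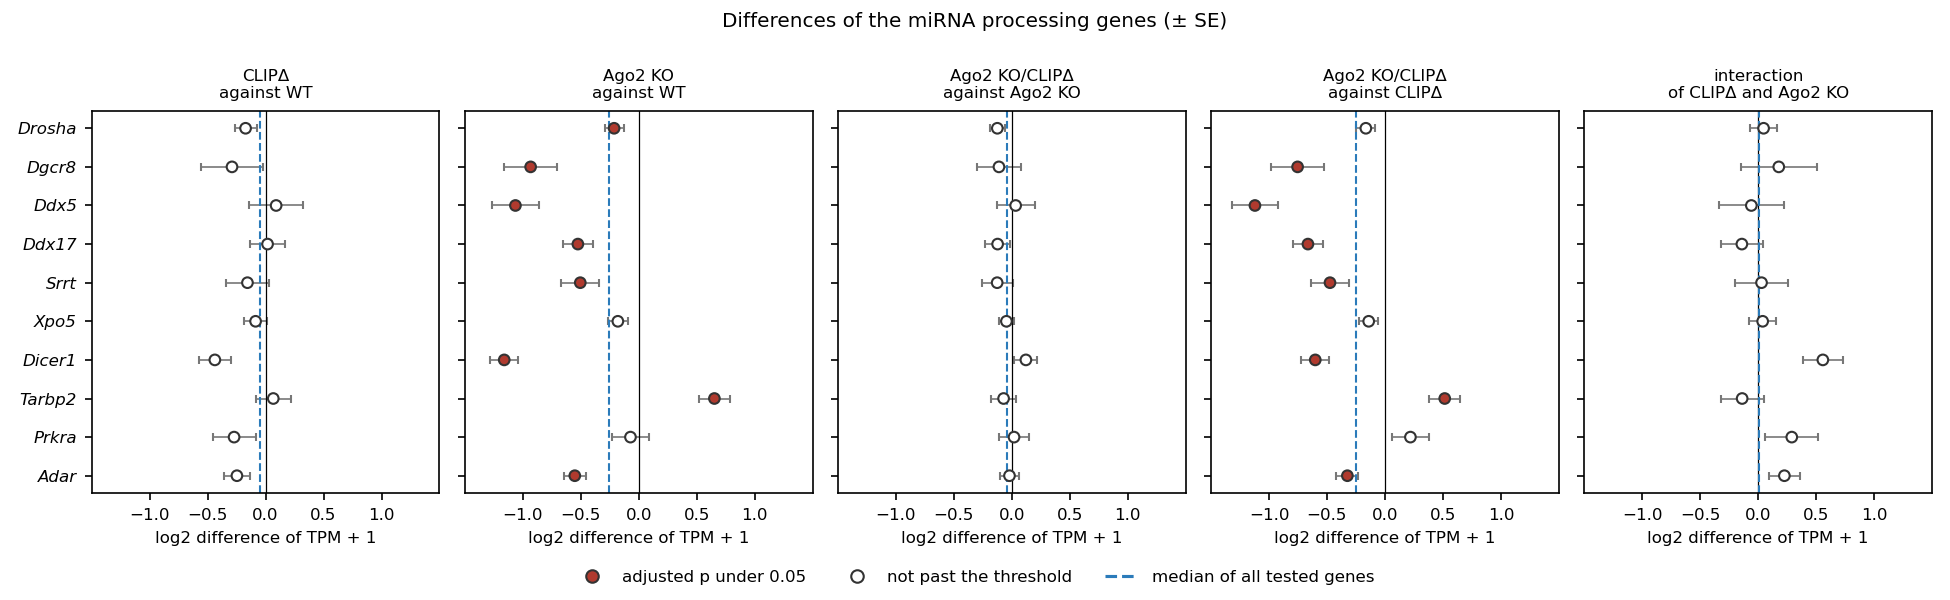
Log2 difference of each miRNA processing mRNA on the log2(TPM + 1) scale (horizontal axis, ± SE) in the 5 comparisons, with filled points for an adjusted p under 0.05 and a dashed line at the median of all tested genes. Filled points appear only where *Ago2* KO libraries are set against libraries with *Ago2*, with 8 in *Ago2* KO against WT and 7 in *Ago2* KO/CLIPΔ against CLIPΔ, and *Dicer1* stands apart in the interaction at 0.56.

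The same deletion was compared without Ago2, in *Ago2* KO/CLIPΔ against *Ago2* KO. Here too 0 of 10 members were called, beside 0.877% of all tested genes, and 0 of 10 had an unadjusted p under 0.05, beside 11.0%. Log2 differences ran from -0.13 (*Srrt*) to 0.12 (*Dicer1*), with adjusted p values from 0.549 to 0.981. *Dicer1* had 13.3, 12.7, 12.02, and 12.2 TPM in *Ago2* KO and 11.8, 12.4, 15.6, and 15.5 TPM in *Ago2* KO/CLIPΔ. Its first and second *Ago2* KO/CLIPΔ libraries were thus near the *Ago2* KO level and the other two above it. *Drosha*, with 38.4, 38.2, 35.3, and 36.1 TPM against 33.2, 36.5, 33.6, and 32.1 TPM, had a log2 difference of -0.12 (SE 0.07, adjusted p = 0.549). The libraries of the compared genotypes overlapped for all 10 members, beside 3.83% of all tested genes that were higher and 9.54% that were lower without overlap. Libraries of the same number were taken as pairs here, although differently numbered libraries within replicates 1 and 2, or 3 and 4, were about as alike. *Drosha* and *Dgcr8* were lower in all 4 pairs, and the other 8 members were not of 1 direction in every pair. The same count over all tested genes was not made, so nothing about the members is read from it. With the replicate number as a block no member was called (adjusted p = 0.459 for *Drosha* and 0.751 for *Dgcr8*).

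The difference between these comparisons, the interaction of CLIPΔ and *Ago2* KO, was tested in the same fit. No member was called (0 of 10, beside 0.647% of all tested genes). At an unadjusted p under 0.05 there was 1 of 10, *Dicer1*, beside 8.01% of all tested genes. It had the largest value, 0.56 (SE 0.17, limma, unadjusted p = 0.00689, adjusted p = 0.302), which is the gap between -0.44 with Ago2 and 0.12 without it. Its value ran from 0.49 to 0.63 when each library was left out in turn, with adjusted p values between 0.181 and 0.496. The remaining 9 members lay between -0.14 and 0.29, with adjusted p values of at least 0.775.

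*Ago2* KO against WT asks how the members differ in cells without Ago2. *Dicer1* was lower, 0.429 of its WT mean, as were *Ddx5* at 0.464 and *Dgcr8* at 0.504, and *Tarbp2* was higher at 1.57. In all, 8 of 10 members were called (limma), 7 lower and 1 higher, where 56.4% of all tested genes were called, 42.4% lower and 14.0% higher. The *Ago2* KO libraries lay below both WT libraries without overlap in 8 members and above them in 1, and only *Prkra* overlapped, while 50.2% of all tested genes were lower without overlap and 18.3% higher. The median log2 difference was -0.51 for the members and -0.26 for all tested genes. Much of this depends on the scale: centring each library on its median moved every value up by 0.35 and left 3 calls, *Dicer1* and *Ddx5* lower and *Tarbp2* higher, beside 21.0% of tested genes lower and 31.5% higher. Without WT replicate 1, 5 members were called.

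Among the Microprocessor subunits, *Drosha* had 38.4, 38.2, 35.3, and 36.1 TPM in *Ago2* KO and 43.6 and 42.3 TPM in WT. The groups did not overlap, but its log2 difference of -0.21 (SE 0.08, adjusted p = 0.0448) was smaller than that of the median gene and became 0.14 after centring. The call was lost with a replicate block (adjusted p = 0.133), with quantile normalization (adjusted p = 0.699), and in 8 of the 12 fits that left out 1 library, those without a WT or an *Ago2* KO library included (adjusted p = 0.0550 to 0.171). *Dgcr8* had 18.4, 18.2, 12.4, and 12.5 TPM in *Ago2* KO, all below the 37.5 and 23.6 TPM of WT. Its log2 difference was -0.93 (SE 0.23, adjusted p = 0.00516), and -0.58 after centring (adjusted p = 0.0604). Without WT replicate 1 it was -0.61 (adjusted p = 0.0936).

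The helicases and Srrt were lower as well. *Ddx5*, whose *Ago2* KO libraries had 340, 355, 292, and 285 TPM against 863 and 508 TPM in WT, fell by 1.06 on the log2 scale (SE 0.20, adjusted p = 0.00108), or by 0.72 after centring (adjusted p = 0.00931). *Ddx17* had 225, 229, 216, and 212 TPM in *Ago2* KO and 345 and 292 TPM in WT. It fell by 0.52 (SE 0.13, adjusted p = 0.00485), a call that was lost without WT replicate 1 (adjusted p = 0.0672). *Srrt*, at 372, 367, 338, and 326 TPM against 463 and 534 TPM, fell by 0.50 (SE 0.16, adjusted p = 0.0201), a call lost without WT replicate 2 (adjusted p = 0.122). For *Ddx17* and *Srrt* the centred values of -0.18 and -0.16 did not pass the test, with adjusted p values of 0.159 and 0.536. *Xpo5*, the export receptor, was not called, with 41.7, 40.9, 38.4, and 36.6 TPM against 44.2 and 45.3 TPM and a log2 difference of -0.18 (adjusted p = 0.0859) that became 0.17 after centring.

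*Dicer1* and its partners did not move together. *Dicer1* was at 12.02 to 13.3 TPM in the 4 *Ago2* KO libraries, far below both WT libraries at 29.9 and 28.5 TPM. It fell by 1.16 on the log2 scale (SE 0.12, adjusted p = 5.13e-05) and by 0.81 after centring (adjusted p = 7.8e-05), and its adjusted p stayed at or below 0.000949 when each library was left out in turn. *Tarbp2* had 122, 118, 114, and 111 TPM in *Ago2* KO, all above the 65.2 and 82.9 TPM of WT. It rose by 0.65 (SE 0.13, adjusted p = 0.00162), and by 1.00 after centring (adjusted p = 0.000662). *Prkra*, the other double-stranded RNA-binding partner, had 4.25, 4.88, 4.99, and 4.87 TPM against 4.79 and 5.28 TPM, overlapping groups with a log2 difference of -0.07 (adjusted p = 0.726) and 0.28 after centring. *Adar*, at 20.5, 20.02, 18.5, and 18.4 TPM against 27.4 and 30.3 TPM, fell by 0.55 (SE 0.10, adjusted p = 0.00069), a call that was lost after centring (-0.20, adjusted p = 0.0604).

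Transcript length moved with the differences in several comparisons. Across the tested genes with a length, Spearman's rho of length and log2 difference was -0.35 in *Ago2* KO against WT, -0.29 in *Ago2* KO/CLIPΔ against CLIPΔ, -0.19 in CLIPΔ against WT, 0.17 in the interaction, and -0.01 in *Ago2* KO/CLIPΔ against *Ago2* KO. In *Ago2* KO against WT the median log2 difference was 0.06 in the quintile of genes with the shortest transcripts and -0.56 in the quintile with the longest, above 4995 nt. The median of the longest quintile was -0.12 in CLIPΔ against WT and 0.08 in the interaction, where *Dicer1* had -0.44 and 0.56. Genes are not independent replicates, and this is a description. *Dicer1* (longest transcript 9851 nt), *Adar* (5909 nt), and *Xpo5* (5081 nt) were in the longest quintile, and *Prkra* (1614 nt) was in the shortest. *Tarbp2* was in neither by its longest transcript (2732 nt). Its longest coding transcript, at 1523 nt, was under the 1828 nt that bounds the shortest quintile. The part of length in the differences of the members was not tested.

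*Ago2* KO/CLIPΔ against CLIPΔ is the same contrast in cells without the Trim71 site. Here 7 of 10 members were called, 6 lower and 1 higher, beside 54.9% of all tested genes, 42.1% lower and 12.8% higher. Without overlap 8 members were lower and 1 was higher, beside 48.3% and 16.7% of all tested genes. *Dicer1* was lower again, at 11.8, 12.4, 15.6, and 15.5 TPM against 20.3 and 22.4 TPM, a fall of 0.60 (SE 0.12, adjusted p = 0.00175). *Ddx5*, at 310, 309, 320, and 360 TPM against 861 and 578 TPM, fell by 1.12 (SE 0.20, adjusted p = 0.000919). *Ddx17* fell by 0.66 (adjusted p = 0.00143), *Dgcr8* by 0.75 (adjusted p = 0.0161), *Srrt* by 0.47 (adjusted p = 0.0271), and *Adar* by 0.32 (adjusted p = 0.0137). *Tarbp2*, with 129, 118, 99.0, and 99.6 TPM against 70.1 and 84.6 TPM, rose by 0.52 (SE 0.13, adjusted p = 0.00656). *Drosha* (-0.16, adjusted p = 0.108), *Xpo5* (-0.14, adjusted p = 0.173), and *Prkra* (0.22, adjusted p = 0.264) were not called. After centring, which added 0.33 to every value, *Dicer1*, *Ddx5*, and *Ddx17* were called lower and *Tarbp2* and *Prkra* higher, beside 21.0% of tested genes lower and 30.1% higher. Leaving out CLIPΔ replicate 1 left 3 calls, *Dicer1*, *Ddx5*, and *Ddx17*, all lower.

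Ratios between partner mRNAs within a library do not depend on the scaling of that library. Differences that go with transcript length do not cancel in them, and *Dicer1* (9851 nt) has a longer transcript than *Tarbp2* or *Prkra*. The ratio of *Drosha* to *Dgcr8* was 1.16 and 1.80 in WT, 1.35 and 1.83 in CLIPΔ, 2.08, 2.1, 2.85, and 2.87 in *Ago2* KO, and 2.1, 2.23, 2.89, and 2.58 in *Ago2* KO/CLIPΔ. The *Ago2* KO genotypes were therefore above every WT and CLIPΔ library. *Tarbp2* to *Dicer1* showed the widest change, from 2.18 and 2.91 in WT and 3.45 and 3.78 in CLIPΔ to between 9.13 and 9.51 in *Ago2* KO. In *Ago2* KO/CLIPΔ this ratio was 10.9 and 9.53 in replicates 1 and 2 and 6.36 and 6.43 in replicates 3 and 4, so that genotype held both a higher and a lower set than *Ago2* KO. CLIPΔ was above WT without overlap for this pair. *Prkra* to *Dicer1* was 0.160 and 0.185 in WT, 0.168 and 0.209 in CLIPΔ, and between 0.320 and 0.415 in the *Ago2* KO genotypes. *Ddx17* to *Ddx5* was 0.400 and 0.574 in WT, 0.408 and 0.508 in CLIPΔ, 0.646 to 0.743 in *Ago2* KO, and 0.561 to 0.703 in *Ago2* KO/CLIPΔ, where the lowest library fell within the WT range.

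**Figure D3:**
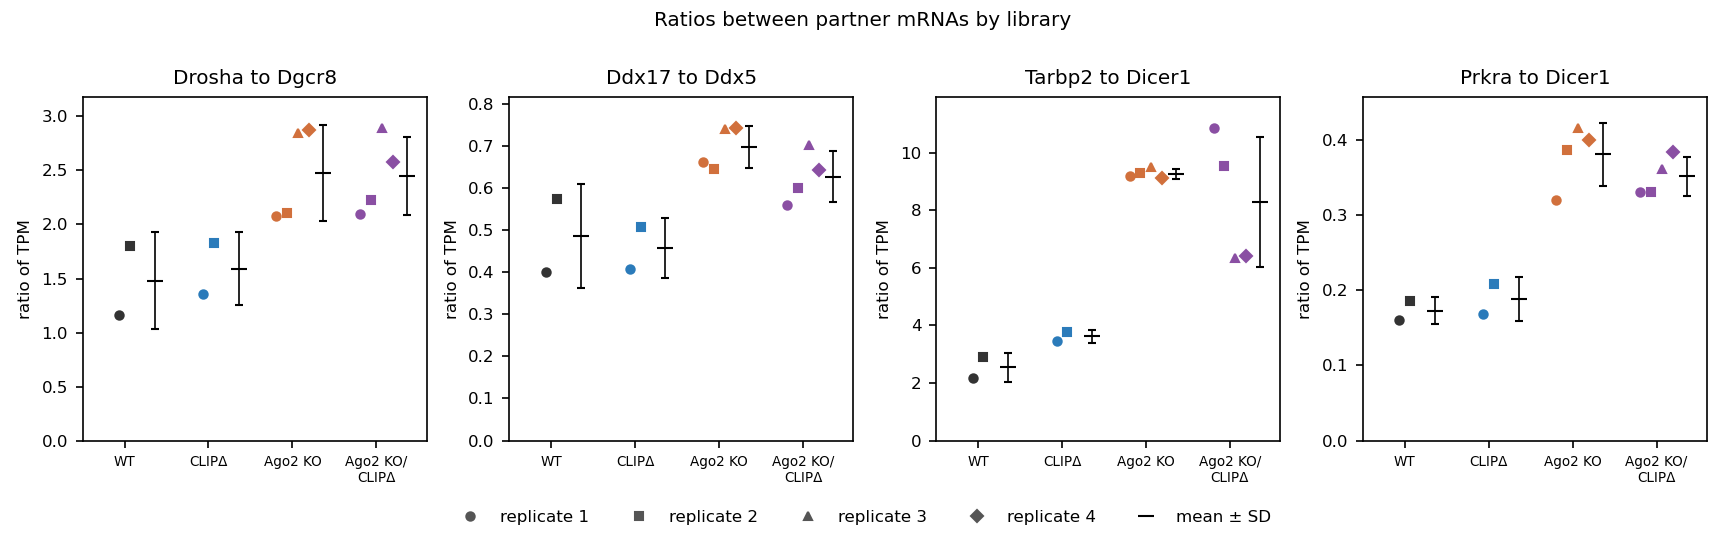
Ratio of TPM between partner mRNAs (vertical axis from 0) in every RNA-seq library of the 4 genotypes, with the marker shape giving the replicate number and the black bar the mean ± SD. *Tarbp2* to *Dicer1* is 2.18 to 3.78 in the libraries with *Ago2* and 6.36 to 10.9 in those without, and in *Drosha* to *Dgcr8* replicate 1 lies below replicate 2 in WT and CLIPΔ.

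The members differed in how much they varied between libraries of 1 genotype, and some did so by replicate number. Replicate 1 was above replicate 2 for *Ddx5* by 1.70-fold in WT and 1.49-fold in CLIPΔ, and for *Dgcr8* by 1.59-fold and 1.38-fold. In the *Ago2* KO genotypes replicates 1 and 2 were above replicates 3 and 4 for *Dgcr8*, 1.47-fold in *Ago2* KO and 1.34-fold in *Ago2* KO/CLIPΔ. *Srrt* was 1.46-fold higher in the first and second *Ago2* KO/CLIPΔ libraries than in the other two, and 1.11-fold in *Ago2* KO. *Drosha* and *Xpo5* were the steadiest, with a coefficient of variation of at most 5.52% and 5.93% in any genotype. The labels do not say what the replicate numbers share.

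The genes whose log2 levels were most like a member over the 12 libraries were found by Pearson's r, as a description of libraries that share genotypes. For *Dicer1* they were *Nhsl1* (r = 0.994), *Tcf4* (r = 0.991), and *Asap1* (r = 0.990), for *Dgcr8* *Zmat3* (r = 0.989), *Gne* (r = 0.983), and *Dnaja4* (r = 0.981), and for *Drosha* *Proser1* (r = 0.978), *Polr3a* (r = 0.951), and *Xpo6* (r = 0.947). None of them was another member.

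The other genes of the pathway were counted in 3 lists. Of 20 Microprocessor cofactors, all tested, 1 was higher and 11 were lower in *Ago2* KO against WT, with a median of -0.68 beside -0.26 for all tested genes. After centring 6 were higher and 9 lower. These counts stand beside 42.4% of all tested genes lower and 14.0% higher, or 21.0% and 31.5% after centring. The RNA-binding proteins *Hnrnpa2b1* (-1.45, SE 0.12, adjusted p = 1.89e-05) and *Taf15* (-1.35, SE 0.15, adjusted p = 6.11e-05) had the largest differences. Of 12 genes of export, tailing, and decay, 10 were tested, of which 1 was higher and 7 were lower (1 and 4 after centring), with the export receptor *Xpo1* (-1.17, SE 0.16) and the terminal uridylyltransferase *Tut7* (-1.11, SE 0.18) as the largest. Of 13 genes of loading and silencing, 11 were tested and 9 were lower (5 after centring), *Ago2* itself (-3.13, SE 0.19) and the silencing scaffold *Tnrc6c* (-0.84, SE 0.10) first. In CLIPΔ against WT only *Zc3h12a*, a ribonuclease that cuts some precursors, was called in the 3 lists. It was lower by -0.72 (SE 0.16, limma, adjusted p = 0.0456, 0.0910 after centring, and 0.863 with only the WT and CLIPΔ libraries). Centring called the silencing scaffold *Tnrc6c* instead (-0.42, adjusted p = 0.0257), and the replicate block added *Lin28a*, an inhibitor of let-7 processing (-0.88, adjusted p = 0.0345). In *Ago2* KO/CLIPΔ against *Ago2* KO no gene of the lists was called in the fit of all 4 genotypes without the block. With the block *Ncbp2*, a cap-binding protein, was called lower (-0.36, adjusted p = 0.0404). A limma fit of only the libraries compared called *Ncbp2* (adjusted p = 0.0359), *Ilf2* (-0.30, adjusted p = 0.0432), and *Zc3h12a* (-0.39, adjusted p = 0.0464), all lower. It called 364 of all 11287 tested genes. *Tnrc6c*, *Lin28a*, *Ncbp2*, and *Ilf2*, and *Zc3h12a* in this last comparison, were named here after their values were seen. No gene of the lists was called in the interaction, with or without the block.

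Trim71 CLIP peaks lay in 2 of the 10 members, *Dicer1* and *Drosha*, and 8 had none, while 227 of the tested genes (2.01%) had a peak. The list pools the replicates, so its read numbers carry no replicate error. All 3 peaks were in introns on the strand of the gene (mm10). In *Dicer1* the peak was at chr12:104746666-104746668 on the - strand with 1354 reads, in intron 1 of 26. In *Drosha* a peak of 1134 reads was at chr15:12923110-12923113 on the + strand and another of 4 reads at chr15:12923084-12923085, both in intron 29 of 34. They ranked 341, 366, and 493 by reads among the 498 peaks of the list, whose median was 2281 reads, so these were among its weaker peaks. No other annotated gene lay within 100 nt. Each peak that the list places in a member is shown in a window of 30 nt on the strand of the gene. The letters are DNA from GRCm38, with the peak in capitals. Whether a window lies in a repeat was not checked.
Dicer1 intron 1: atgatgtagaccagGCTggccttgaacttg
Drosha intron 29, 4 reads: attcaaatagttctTGgagggctgttagtg
Drosha intron 29, 1134 reads: gtggtctccaagtACTGgtagacatttctg

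*Dicer1* mRNA also carried matches to let-7, a family of miRNAs that is low in mESCs and rises as they differentiate. The 8mer CTACCTCA, which pairs with the seed of let-7 (bases 2 to 8) and ends in the A opposite base 1, was searched on the sense strand of the longest coding transcript of each gene in the GENCODE annotation. None of the 10 members had it in its 3'UTR, where 3.57% of the tested genes did. A 7mer, the 8mer without its first or its last base, was in the 3'UTR of *Tarbp2* only. Thus 1 of 10 members had a 7mer or 8mer there, beside 16.1% of the tested genes. The coding sequence of *Dicer1* (5721 nt) held the 8mer 3 times, at nt 3611, 3719, and 5091 from the start codon, and no other member held the 8mer there. Of 10857 tested genes, 5.38% had it in the coding sequence at all and 5 (0.0461%) at least 3 times, in coding sequences of different length. The sequences are shown with let-7a (seed in capitals) above the 3 matches (8mer in capitals).
let-7a-5p: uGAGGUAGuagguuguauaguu
Dicer1 coding nt 3611: tgtacaaccaaCTACCTCAtatcccattca
Dicer1 coding nt 3719: cgctaacacatCTACCTCAgatggaagccc
Dicer1 coding nt 5091: gcgattttggaCTACCTCAtaaccaagcac
These are matches of letters and not sites shown to be bound.

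*Dgcr8* is itself a source of miRNAs, because the Microprocessor cuts hairpins in its mRNA. RefSeq places 10 mature miRNAs within 4 members on their own strand, those of mir-1306 and mir-3618 in *Dgcr8*, mir-3064 in *Ddx5*, mir-7036a in *Srrt*, and mir-693 in *Xpo5*, and only both arms of miR-1306 were among the 507 miRNAs of the small-RNA table. They lie in the coding part of exon 2 of *Dgcr8* (GRCm38, - strand), the 5p arm at chr16:18284288-18284310 and the 3p arm at chr16:18284248-18284268. Their sequences are given from RefSeq with the seed in capitals, as the 2 products of a member that could be measured.
miR-1306-5p: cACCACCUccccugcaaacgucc
miR-1306-3p: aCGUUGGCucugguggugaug

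Both arms of miR-1306 were rare. Values are given as TPM, which is scaled by miRNA length, rescaled to the same table total in every library and listed in column order. miR-1306-3p was at 14.4, 14.5, 13.7, and 39.1 TPM in WT, 30.2, 22.5, 38.1, and 47.5 TPM in CLIPΔ, 20.6, 14.9, 16.9, and 14.5 TPM in *Ago2* KO, and 11.0, 12.6, 9.24, and 16.0 TPM in *Ago2* KO/CLIPΔ. A single WT library overlapped the range of CLIPΔ. The difference of CLIPΔ against WT was 0.83 on the log2(TPM + 1) scale (two-sided exact permutation p = 0.114, 0.229 after adjustment over 4 tests), and that of *Ago2* KO/CLIPΔ against *Ago2* KO was -0.44 (exact permutation p = 0.0857, adjusted 0.229). The smallest p that 4 against 4 libraries can give is 0.0286. miR-1306-5p was at 2.16, 1.99, 0.565, and 1.80 TPM in WT and 2.76, 1.11, 6.23, and 6.22 TPM in CLIPΔ, a log2 difference of 0.83 (exact permutation p = 0.20, adjusted 0.267). In *Ago2* KO it was at 14.0, 18.1, 23.6, and 9.88 TPM and in *Ago2* KO/CLIPΔ at 12.2, 17.8, 16.8, and 13.1 TPM, a log2 difference of -0.08 (exact permutation p = 0.743). None of the 4 tests passed the threshold.

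The arms of miR-1306 stood in different proportion with and without Ago2. From the steps between low values, 99.3% to 100% of which were whole multiples of 1 read within 0.02 reads, the arms rested on between 4 and 256 reads in a library. The 5p arm had 4 to 46 reads in a library with *Ago2* and 9 to 23 without. In a WT library 15 reads made 2.16 TPM, and in an *Ago2* KO library 12 reads made 14.0 TPM. A read thus stood for more TPM without *Ago2*. Summed over the 4 libraries of a genotype, the 5p arm had 46 reads in WT and 94 in CLIPΔ. It had 64 in *Ago2* KO and 66 in *Ago2* KO/CLIPΔ. The higher 5p TPM without *Ago2* thus went with more reads than in WT and fewer than in CLIPΔ. Of the miR-1306 reads, the 5p arm made up 8.61% in WT (46 and 488 reads of 5p and 3p, 95% Wilson interval 6.52% to 11.3%) and 11.1% in CLIPΔ (9.19% to 13.4%). It made up 52.5% in *Ago2* KO (43.7% to 61.1%) and 56.9% in *Ago2* KO/CLIPΔ (47.8% to 65.5%). By library the share was 4.35% to 15.2% with *Ago2* and 42.9% to 66.7% without it, with no overlap. The intervals cover counting error only, this contrast was noticed in the values and not tested, and the small-RNA libraries with and without *Ago2* cannot be told apart from any batch.

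**Figure D4:**
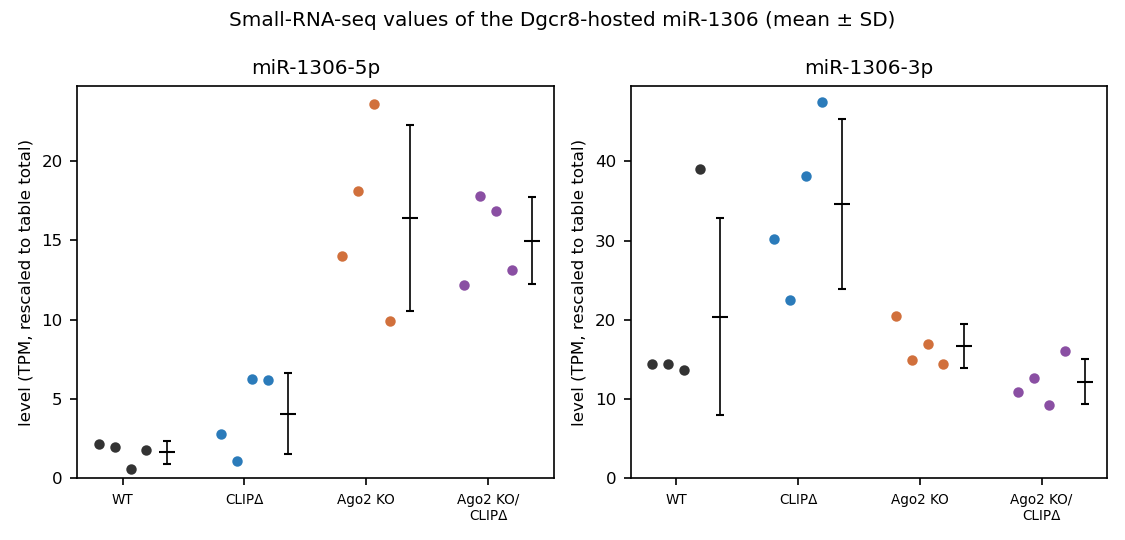
Small-RNA-seq values of the 5p and the 3p arm of miR-1306 (TPM rescaled to the table total, vertical axis from 0) in the 4 libraries of each genotype, with the black bar at the mean ± SD. The 5p arm is at 0.565 to 6.23 TPM (4 to 46 reads) with *Ago2* and 9.88 to 23.6 TPM (9 to 23 reads) without. For the 3p arm 1 WT library stands at 39.1 TPM above the other 3.

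Some members share sequence or place with other genes. The longest transcripts of *Ddx5* and *Ddx17*, and those of *Tarbp2* and *Prkra*, share 0 stretches of 30 nt, so reads of these relatives can be told apart. Exons of *Adar* overlap 1365 nt of exons of the opposite-strand gene *Chrnb2*, which was at most at 1.84 TPM, and exons of *Dgcr8* overlap 825 nt of those of *Trmt2a*, which was at 79.2 to 141 TPM. The library kit marks the strand, but whether the counting used it is not given in the sources used here, so reads in the *Dgcr8* and *Trmt2a* overlap may be shared.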

How the data were processed

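RNA was measured in mESCs of the 4 genotypes by 12 RNA-seq and 16 small-RNA-seq libraries, and Trim71 contacts in 2 CLIP-seq immunoprecipitations and an input. The labels name a medium with serum and Lif or one with 2i and Lif, and the study's text gives 2i and Lif for its profiling. The authors aligned reads with HISAT2 2.1.0 (mm10), ran HTSeq with 1 transcript a gene, the longest, and deposited the result as TPM (depth unknown in RNA-seq). Small-RNA values were deposited by the authors as TPM in the same way. For CLIP-seq the authors deposited a count of reads for each peak common to both replicates, called with CLIPper. Column codes were matched to genotypes by name, that of CLIPΔ by elimination, and columns of other samples numbered 0. The small-RNA columns of WT and CLIPΔ carry letters and were matched to a genotype only.

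TPM values were tested as log2(TPM + 1), with a pseudocount of 1, by limma 3.58.1 (lmFit and eBayes with trend, R 4.3.3) in 1 model of the 4 genotypes, for genes whose mean TPM reached 1, with Benjamini-Hochberg adjustment over all of them and a threshold of 0.05. Fold changes on this scale understate those of low genes such as *Prkra*. The fit was tested on simulated data. The study's edgeR test needs counts and was not used. The members and lists were chosen with earlier results of these data known. Named are all members, *Ago2*, at most 2 called genes with the largest difference per list and comparison, and the 3 genes most like *Drosha*, *Dgcr8*, and *Dicer1*.

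Replicate numbers were checked by the correlation of deviations from the genotype means. Same-numbered *Ago2* KO and *Ago2* KO/CLIPΔ libraries had r of 0.32 to 0.43 in 4 pairs, all over 0.1. The numbers were taken as pairs there, from the data and not from a statement in the labels. Differently numbered libraries within replicates 1 and 2, or within 3 and 4, had r of 0.33 to 0.47. The check therefore cannot tell pairs by number from sets of replicates, 1 and 2 against 3 and 4. The deposited miRNA TPM values, which scale with miRNA length, were rescaled to the same table total, in place of the RPM that had been planned, and compared by exact permutation tests (scipy 1.17.1). Gene models were those of GENCODE M21 (GRCm38, the same assembly as mm10). Other scalings, filters, pseudocounts, fits, and left-out libraries were tried as alternatives. Figures were drawn with matplotlib 3.10.9.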

Additional observations from a re-analysis of the deposited data

Results flagged for a closer look

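In 28 groups of 4 libraries of the members and of miR-1306, 3 had a library far from the other 3 by Dixon's ratio, of which chance gives about 1 in 20. *Prkra* was at 4.25 TPM in *Ago2* KO replicate 1, below 3 libraries at 4.87 to 4.99 TPM. *Adar* was at 17.3 TPM in *Ago2* KO/CLIPΔ replicate 1, below 3 libraries that were all at 19.7 TPM. miR-1306-3p was at 39.1 TPM in a WT library, above 3 libraries at 13.7 to 14.5 TPM.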

How the results depend on the processing

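The counts of called members in CLIPΔ against WT, *Ago2* KO/CLIPΔ against *Ago2* KO, and the interaction were 0 under every alternative run. In *Ago2* KO against WT, 8 calls became 3 with median centring, 7 with quantile normalization, and 7 with the replicate block, which lost *Drosha* (-0.17, adjusted p = 0.133) and changed no other call of a member in any comparison. With the replicate block and only the libraries of the genotypes compared (chosen after seeing the data), 4 members were called in *Ago2* KO against WT and 4 in *Ago2* KO/CLIPΔ against CLIPΔ. The WT and CLIPΔ numbers form 2 pairs (r = 0.71), also over the 0.1 used for the *Ago2* KO genotypes, but were not taken as pairs. The main fit has no block, so differences between replicate numbers stay in its error. Leaving out each library gave 5 to 8 and 3 to 7 calls in these comparisons.

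Several differences near 0 changed sign, and the cause was not tested. With median centring, *Ago2* KO against WT gave 0.14 (*Drosha*), 0.17 (*Xpo5*), and 0.28 (*Prkra*), *Ago2* KO/CLIPΔ against CLIPΔ gave 0.17 (*Drosha*), 0.19 (*Xpo5*), and 0.0080 (*Adar*), and *Ago2* KO/CLIPΔ against *Ago2* KO gave 0.020 (*Adar*). With quantile normalization the values were 0.34 (*Prkra*, *Ago2* KO against WT), 0.036 (*Drosha*) and 0.061 (*Xpo5*) in *Ago2* KO/CLIPΔ against CLIPΔ, and 0.0058 (*Xpo5*) and 0.029 (*Adar*) in *Ago2* KO/CLIPΔ against *Ago2* KO. With replicates 1 and 2 of the *Ago2* KO genotypes only, *Ago2* KO/CLIPΔ against *Ago2* KO gave -0.17 (*Ddx5*), 0.069 (*Srrt*), -0.092 (*Dicer1*), 0.040 (*Tarbp2*), and -0.15 (*Prkra*), the interaction gave -0.032 (*Xpo5*), and *Prkra* in *Ago2* KO/CLIPΔ against CLIPΔ was -0.00020, as with the block and only these genotypes. With replicates 3 and 4 only, the first of these comparisons gave 0.093 (*Ddx17*), 0.025 (*Xpo5*), and 0.087 (*Adar*), and the interaction gave 0.14 (*Ddx5*), 0.076 (*Ddx17*), and -0.17 (*Srrt*).

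When each library was left out, values that changed sign ran from -0.61 to 0.035 (*Dgcr8*), -0.10 to 0.24 (*Tarbp2*), -0.29 to 0.47 (*Ddx5*), and -0.11 to 0.14 (*Ddx17*) in CLIPΔ against WT, and from -0.065 to 0.10 (*Prkra*), -0.042 to 0.023 (*Adar*), and -0.017 to 0.088 (*Ddx5*) in *Ago2* KO/CLIPΔ against *Ago2* KO. In the interaction they ran from -0.15 to 0.50 (*Dgcr8*), -0.31 to 0.033 (*Tarbp2*), -0.44 to 0.32 (*Ddx5*), and -0.073 to 0.13 (*Srrt*), and for miR-1306-5p in *Ago2* KO/CLIPΔ against *Ago2* KO from -0.28 to 0.11. Apart from left-out libraries, 525 of the member differences kept direction and side of the threshold. With at least 100 reads, 2 of 3 CLIP peaks remained. Few libraries of WT and CLIPΔ limit what these comparisons can show.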
